A study of Mus musculus with 2 samples.

Results

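The 9 genes that encode the subunits of Kv4 A-type potassium channels were examined in 2 RNA sequencing libraries of adult mouse cerebellum. They were matched by Ensembl gene identifier, and all 9 were found among 43346 annotated mouse genes. The group holds 3 pore genes (Kcnd1, Kcnd2, Kcnd3), 4 KChIP genes (Kcnip1 to Kcnip4) and 2 DPP genes (Dpp6, Dpp10). Dpp6 was the highest at 117 ± 6.34 TPM (SD, n = 2) and Kcnd1 the lowest at 4.34 ± 0.658 TPM. TPM is a length-corrected abundance relative to all RNA counted in a library. For Dpp6, Dpp10, Kcnip1 and Kcnip4, reads over splice junctions came from 2 or more alternative first exons.

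Kv4 channels carry a fast-inactivating potassium current that opens below spike threshold and shapes the first spikes and dendritic signals of neurons. The pore is a tetramer of Kv4 alpha subunits. KChIPs are cytosolic calcium-binding proteins that clasp the cytosolic N-terminus of the pore and change its surface expression and inactivation. DPP6 and DPP10 are single-pass membrane proteins of the dipeptidyl peptidase family without peptidase activity that speed the gating of the channel. In the KChIP and DPP genes, alternative first exons code for different N-termini, the part of these subunits known to tune channel gating.

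Both libraries form the single group, cerebellum of C57BL/6J mice at 8 weeks, with no genetic change or treatment recorded. They are stranded, paired-end libraries of polyadenylated RNA with reads of 101 bases. The labels call both mixed-sex and do not say which animals went into each. The libraries go against the label: Xist had 45928 estimated fragments in replicate 1 and 26 in replicate 2, and 4 Y-linked genes had 0 and 11890. Each library's value is therefore given, and no test between conditions exists. Replicate 1 held 83109117 estimated fragments and replicate 2 held 84279927. Genes took 79771873 and 80281011 of them, of which 0.102% and 0.0965% fell on the 9 genes. The tissue label was checked on markers: 10 of 10 granule neuron, 9 of 9 Purkinje neuron and 9 of 9 molecular layer interneuron genes reached 1 TPM in both libraries, against 4 of 9 forebrain neuron genes. Granule neuron markers summed to 2540 TPM in replicate 1 and 2041 TPM in replicate 2, and Purkinje neuron markers to 3280 and 2734 TPM, with all 10 and all 9 genes higher in replicate 1. Most genes were higher in replicate 1 by TPM, with a median log2 ratio of replicate 2 to replicate 1 of -0.066. The 6 choroid plexus markers summed to 2127 TPM in replicate 1 and 780 TPM in replicate 2, and the 6 oligodendrocyte markers to 6531 and 7682 TPM. The part of these differences in the values below was not tested. In whole tissue, fewer cells of a type and less RNA per cell cannot be told apart.

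The alternative first exons are shown because most isoform results turn on them. Each line gives the coding part of a first exon, with the start codon in capitals, from GENCODE M21 on mm10. The Dpp6 exons lie on the plus strand of chromosome 5, at chr5:26818059-26818118 (Dpp6-201), chr5:26905238-26905288 (Dpp6-203), chr5:27049589-27049813 (Dpp6-204) and chr5:27262305-27262361 (Dpp6-202), and all join the same shared exon.
Dpp6-201: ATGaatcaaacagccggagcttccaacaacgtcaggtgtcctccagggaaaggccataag
Dpp6-203: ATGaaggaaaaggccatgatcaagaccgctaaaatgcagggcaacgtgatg
Dpp6-204: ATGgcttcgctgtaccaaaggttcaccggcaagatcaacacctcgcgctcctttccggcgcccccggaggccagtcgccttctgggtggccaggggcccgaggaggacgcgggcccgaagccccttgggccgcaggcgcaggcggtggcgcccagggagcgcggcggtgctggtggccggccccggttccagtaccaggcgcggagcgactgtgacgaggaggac
Dpp6-202: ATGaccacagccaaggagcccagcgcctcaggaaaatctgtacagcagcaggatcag
The Dpp6-204 exon codes for 225 bases, against 51 to 60 in the others, and has 72.4% G and C, against 47.1% to 56.1%.

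The Dpp10 first exons lie close together on the minus strand of chromosome 1, at chr1:124045372-124045443 (Dpp10-202) and chr1:124045125-124045163 (Dpp10-201).
Dpp10-202: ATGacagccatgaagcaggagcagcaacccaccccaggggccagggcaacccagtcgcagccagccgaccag
Dpp10-201: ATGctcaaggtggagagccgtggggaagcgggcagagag
The Kcnip4 first exons are spread over the minus strand of chromosome 5, from the outermost at chr5:49524641-49524701 (Kcnip4-201) through chr5:49285253-49285340 (Kcnip4-206) and chr5:48889366-48889465 (Kcnip4-208) to chr5:48599423-48599534 (Kcnip4-204). The Kcnip4-208 exon encodes the hydrophobic N-terminus of the variant known as KChIP4a, which suppresses fast inactivation of Kv4 channels.
Kcnip4-201: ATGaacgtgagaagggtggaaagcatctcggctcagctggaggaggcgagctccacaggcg
Kcnip4-206: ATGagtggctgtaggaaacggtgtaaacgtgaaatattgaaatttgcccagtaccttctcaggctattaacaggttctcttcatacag
Kcnip4-208: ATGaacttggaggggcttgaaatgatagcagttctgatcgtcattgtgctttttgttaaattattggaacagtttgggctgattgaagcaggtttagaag
Kcnip4-204: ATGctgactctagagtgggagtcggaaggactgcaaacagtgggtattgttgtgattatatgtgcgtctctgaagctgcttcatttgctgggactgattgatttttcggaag

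In Kcnip1, the inner first exon codes from chr11:33843130-33843190 on the minus strand of chromosome 11. An outer first exon ends at chr11:33992749-33992778, of which the last 30 bases are shown. A 33-base coding exon at chr11:33651540-33651572 can follow either.
Kcnip1 inner first exon: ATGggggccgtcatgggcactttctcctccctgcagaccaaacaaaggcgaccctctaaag
Kcnip1 outer first exon, last 30 bases: ttaaactcatcaccgggaccctcagcaaag
Kcnip1 33-base exon: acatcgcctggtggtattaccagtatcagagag
Kcnd3, the Kv4.3 pore, has a 57-base coding exon at chr3:105666962-105667018 on the plus strand, the insert in the cytoplasmic C-terminus that separates the long and short forms of Kv4.3.
Kcnd3 57-base exon: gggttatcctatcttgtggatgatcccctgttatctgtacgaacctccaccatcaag
In Kcnip3, the third exon starts at either of 2 acceptors 4 bases apart, and those 4 bases are in capitals below, in the stretch chr2:127465953-127465978 of the minus strand. The annotated reading frames of the 2 forms start at different ATG codons of the same first exon, shown in capitals at chr2:127521238-127521340: the upstream ATG belongs to Kcnip3-201 and the downstream ATG to Kcnip3-203.
Kcnip3-203 exon start: ACAGcagtgacagtgaactggagtta
Kcnip3 first exon: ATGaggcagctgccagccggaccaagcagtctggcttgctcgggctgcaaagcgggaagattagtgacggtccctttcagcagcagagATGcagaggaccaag

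Among the pores, Kcnd2 (Kv4.2; chr6:21215503-21729805) stood at 68.3 TPM in replicate 1 and 58.0 TPM in replicate 2. Kcnd3 (chr3:105452330-105674002) stood at 20.9 and 18.5 TPM. Kcnd1 (Kv4.1; chrX:7822289-7838280) stood at 3.87 and 4.80 TPM. The 3 levels did not overlap between the libraries, and Kcnd2 made up 72.4% ± 1.45 of the summed pore level, Kcnd3 22.6% ± 0.218 and Kcnd1 5.03% ± 1.23 (SD, n = 2).

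In the KChIP group, 3 genes were at like levels. Kcnip4 (chr5:48389502-49524907) had 71.5 and 62.4 TPM. Kcnip3 (chr2:127456498-127522094), also known as the calcium-dependent repressor DREAM, had 55.0 and 51.7 TPM, and Kcnip1 (chr11:33629339-33993152) had 55.2 and 49.95 TPM. The ranges of Kcnip3 and Kcnip1 overlapped and that of Kcnip4 lay above both. Kcnip2 (chr19:45791839-45816061), the KChIP best known from heart muscle, had 6.22 and 6.83 TPM, or 3.65% ± 0.487 of the KChIP sum.

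Of the DPP genes, Dpp6 (chr5:26817203-27727505) had 121 and 112 TPM, and Dpp10 (chr1:123321471-124045559) had 39.7 and 32.8 TPM. Dpp6 was above Dpp10 in both libraries and made up 76.3% ± 1.45 of their sum. The summed KChIP level was 2.06 ± 0.0575 times the summed pore level and the summed DPP level 1.75 ± 0.0386 times it (SD, n = 2). These are ratios of RNA levels and say nothing of protein.

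**Figure D1:**
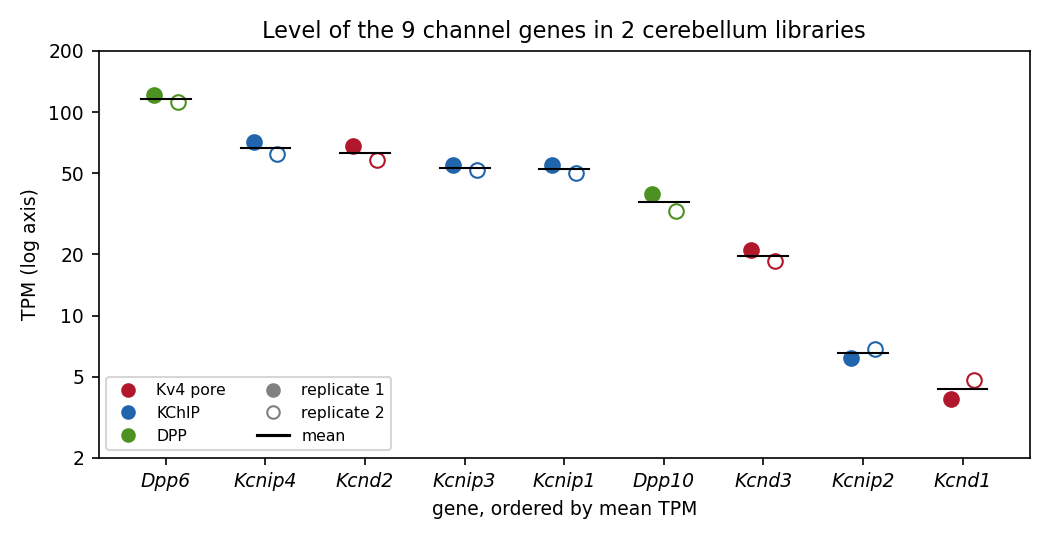
TPM of each gene on a log axis, in replicate 1 (filled) and replicate 2 (open), with the mean as a line and colours for pore, KChIP and DPP genes. Kcnip2 and Kcnd1 sit below 7 TPM and the other 7 genes above 18 TPM in both libraries.

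In the order of mean TPM, Dpp6 was followed by Kcnip4, Kcnd2, Kcnip3, Kcnip1, Dpp10, Kcnd3, Kcnip2 and Kcnd1. The neighbours Kcnip4 and Kcnd2, and the neighbours Kcnip3 and Kcnip1, overlapped between the libraries and did not differ beyond their spread. The other neighbours did not overlap. All 9 genes reached 1 TPM in both libraries, against 60.9% of 21474 protein-coding genes. Of the 9 genes, 6 span at least 100 kb of the genome, against 11.5% of protein-coding genes, and 4 of them (Dpp6, Kcnip4, Kcnd2 and Dpp10) at least 500 kb, against 1.07%.

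No member was 2-fold apart between the libraries, against 3.22% of the 19694 genes with at least 10 counts. Among the 10392 genes with at least the 1536 counts of Kcnip2, the least counted member, the share was 0.115%. Kcnd1 was the farthest apart, with 969 and 1280 fragments and a log2 ratio of replicate 2 to replicate 1 of 0.39 after scaling. Kcnd1 is X-linked, and it was higher in the library with Y-linked reads. Kcnip2 had 709 and 827 fragments and a log2 ratio of 0.21. The other 7 were higher in replicate 1, with log2 ratios from -0.17 (Kcnd2) to -0.02 (Kcnip3). After this scaling the median log2 ratio over all 19694 genes was -0.002. By TPM, without it, the median over 19646 genes was -0.066, so most genes were higher in replicate 1. The marker directions below are by TPM and are not on the scale of the log2 ratios above. All 10 granule and all 9 Purkinje neuron markers were higher in replicate 1. So were 6 of 6 unipolar brush cell, 6 of 6 choroid plexus, 6 of 7 Bergmann glia and astrocyte and 7 of 9 molecular layer interneuron markers. For Golgi cell markers it was 3 of 6, and for oligodendrocyte markers 0 of 6. A link to the 9 genes was not tested.

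Junction reads were read on the mm9 assembly, where replicate numbers name no library, and first exons were tied to mm10 transcripts by the length of their first intron. Across the 9 genes, the share of junction reads on annotated introns ran from 89.0% (Kcnip4) to 98.6% (Kcnd1). Reads were also set against intron length. Of 33 annotated introns from 400 to 500 kb in the whole genome, 22 had reads, whereas none of the 39 introns of 500 kb or more had any. The first introns of Dpp6-201 (565 kb), Kcnip4-201 (1015 kb) and Kcnip4-206 (803 kb) are in the latter class and had 0 reads. The table does hold 2924 junctions of 500 kb or more, with a median of 1 read and at most 315, all off the annotated introns. Whether reads over such introns could have been found was not tested, so nothing is drawn from these 0 reads. The Dpp6-201 exon had 1 read to another annotated acceptor, and 2.16% of the gene's first exon reads with unannotated acceptors counted. Kcnd2 has a single annotated transcript whose first intron of 497 kb had 2056 reads, against 1675 to 2655 over its 5 introns. The 7 annotated first exons of the KChIP and DPP genes that held under 5% of reads had 3 reads in all. Intervals below are 95% Wilson intervals on reads summed over both replicates and cover counting error only.

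In Dpp6, 3 first exons had reads into the shared exon. The exon of Dpp6-203 had 179 reads in replicate 1 and 145 in replicate 2, or 41.8% (38.3 to 45.3) of 776 reads that left a Dpp6 first exon. The exon of Dpp6-202 had 167 and 124 reads, or 37.5% (34.2 to 41.0), and that of Dpp6-204 had 95 and 65, or 20.6% (17.9 to 23.6). The intervals of the first pair overlapped, and Dpp6-204 was the lowest of the 3 in each replicate. The deposited transcript estimates, as percent of the gene's TPM in replicates 1 and 2, gave Dpp6-202 42.1% and 43.4%, Dpp6-203 34.2% and 30.4%, Dpp6-201 10.2% and 12.8%, and Dpp6-204 11.2% and 11.4%. The mm10 transcript estimates thus put Dpp6-202 ahead of Dpp6-203 in both libraries, while the junction intervals of these exons overlapped. In the deposited mm9 transcript estimates this order was reversed. Of the gene's RPKM in the numbered replicates, Dpp6-203 held 33.4% and 32.9%, and Dpp6-202 held 5.82% and 9.23%. Dpp6-201 held 29.7% and 29.3%, and Dpp6-204 held 12.6% and 12.2%. A short form of 4 exons that starts at the Dpp6-202 exon held 15.5% and 13.9%. The cause of the gap between the estimates was not tested. At the shared exon, 802 junction reads entered, none of them from the Dpp6-201 exon, and 835 left.

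Dpp10 differed in direction between the junction reads and the mm10 transcript estimates. Its outer first exon, that of Dpp10-202, had 150 and 150 reads, or 71.1% (66.6 to 75.2) of 422. The inner exon, that of Dpp10-201, had 87 and 35 reads, or 28.9% (24.8 to 33.4). The outer exon was ahead in each replicate, at 63.3% and 81.1%, and both of these values lie outside the interval on the sum. In the transcript estimates, Dpp10-201 had 80.8% and 87.5% of the gene's TPM and Dpp10-202 had 1.90% and 1.75%. Dpp10-202 is annotated there at 15297 bases and Dpp10-201 at 4477, and as a share of expected counts Dpp10-202 had 7.05%. The deposited mm9 transcript estimates had the direction of the junction reads. With these forms at 4626 and 4570 bases, Dpp10-202 held 49.8% and 65.9% of the gene's RPKM in the numbered replicates. Dpp10-201 held 42.7% and 27.5%. A further outer form held 7.53% and 0%, and a further inner form 0% and 6.57%. The part of length in the gap between the measures was not tested.

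Kcnip1 also differed in direction. Its outer first exon had 178 and 148 reads, or 66.0% (61.7 to 70.0) of 494, and its inner first exon 74 and 94, or 34.0% (29.97 to 38.3). The outer exon led in both replicates, at 70.6% and 61.2%. At the shared exon, 526 junction reads entered and 1015 left. The cause of this gap was not tested, and the shares cover only the reads seen on first exon junctions. The transcript estimates placed 89.6% and 92.1% of the gene's TPM on the 3 transcripts that start at the inner exon (Kcnip1-201, Kcnip1-202 and Kcnip1-203). The mm10 annotation used there joins the outer exon only to Kcnip1-204 and Kcnip1-205, processed transcripts of 4 and 3 exons, which held 10.4% and 7.90% together. The mm9 annotation holds fully spliced forms that start at the outer exon, and 320 reads joined that exon straight to the shared exon. The deposited mm9 transcript estimates still gave these forms little of the gene's RPKM. The form of 8 exons held 0.581% and 0.599% in the numbered replicates, and that of 9 exons 0.553% and 0%. Kcnip1-201, from the inner exon, held 79.0% and 76.9%. The cause of the gap to the junction reads was not tested.

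Use of the 33-base exon of Kcnip1 differed by first exon. From the inner first exon, 57 of 74 reads in replicate 1 and 71 of 94 in replicate 2 entered it. From the outer first exon, 2 of 177 and 1 of 146 did. Inclusion was thus 76.2% (69.2 to 82.0) from the inner exon and 0.929% (0.316 to 2.69) from the outer exon, and the intervals did not overlap in either replicate. This exon, the Kcnip3 acceptors and the Kcnd3 exon below were chosen after their counts were seen. These shares count direct junctions only. Another 13 reads left the outer exon, and 6 the inner exon, for an unannotated exon whose far end had 16 reads into the 33-base exon and 8 elsewhere. If all of them are counted as inclusion, the shares are 4.76% (2.95 to 7.59) and 77.0% (70.2 to 82.6). By transcript estimates, Kcnip1-203, which alone contains it, held 37.9% and 45.6% of the TPM of transcripts that start at the inner exon.

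**Figure D2:**
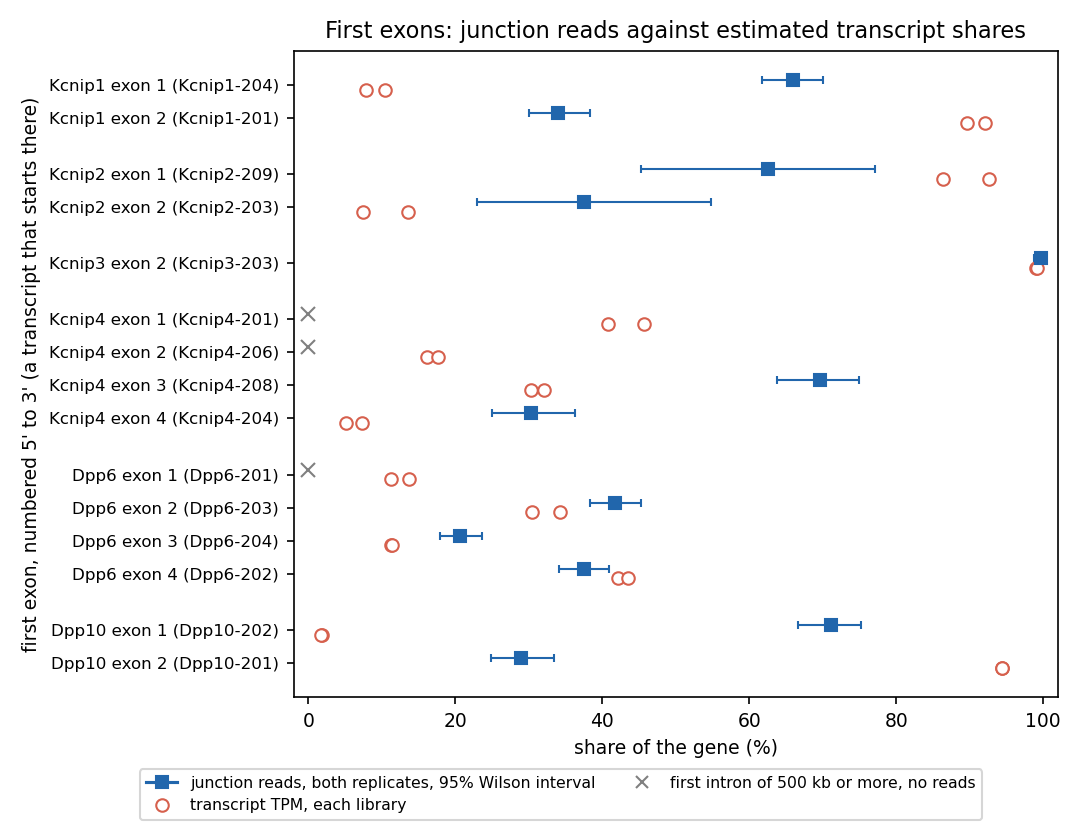
Share of each gene's first exon junction reads (squares, both replicates summed, with 95% Wilson interval) and share of its TPM in transcripts that start at that exon (circles, 1 per library), for exons with at least 5% by either measure. The measures lie far apart for Kcnip1 and Dpp10. They also differ for exons of other genes, such as that of Kcnip4-208 (69.6% of reads, mean 31.2% of TPM). The Kcnip4 junction shares hold no reads from starts behind introns of 500 kb or more. Crosses mark 3 exons whose first introns of 500 kb or more carried no reads.

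On mm9, 4 first exons of Kcnip4 were counted, 2 of them behind introns of 500 kb or more. A start whose first exon ends where an internal exon of another transcript ends was left out. The transcript of 7 exons left out this way held 93.1% and 91.9% of the gene's mm9 RPKM. GENCODE M21 holds further starts, such as that of Kcnip4-205. This transcript has 2108 bases there against 980 as deposited, and on mm9 it starts at the Kcnip4-208 exon. Its 2.65% and 1.94% of TPM are therefore not tied to a start. Of the counted exons behind shorter introns, that of Kcnip4-208 had 90 and 89 reads, or 69.6% (63.8 to 74.9) of 257. That of Kcnip4-204 had 33 and 45, or 30.4% (25.1 to 36.2). Entry into the shared exon gave the wider picture: 174 of 481 reads (36.2%) came from the Kcnip4-208 exon and 76 (15.8%) from the Kcnip4-204 exon. A further 215 reads (44.7%) came through a second exon, which the annotation places after the outermost first exon, that of Kcnip4-201. The transcript estimates gave Kcnip4-201 45.3% and 40.8% of TPM, Kcnip4-208 30.3% and 32.0%, Kcnip4-206 16.1% and 17.6%, and Kcnip4-204 5.12% and 7.35%. The entry reads and the mm10 estimates put the path of the outermost exon ahead of Kcnip4-208. The junction intervals of the 2 paths (40.3 to 49.2 and 32.0 to 40.6) just overlapped. Only the annotation ties the second exon to the outermost exon, whose first intron had 0 reads. The deposited mm9 transcript estimates had the reverse order. Of the gene's RPKM in the numbered replicates, the outermost form of 9 exons held 0.325% and 0.343%. The form from the Kcnip4-208 exon held 2.73% and 3.59%, and that from the Kcnip4-204 exon 3.36% and 4.12%.

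Kcnip3 had a single first exon in use. It carried 315 and 240 reads, 99.6% (98.7 to 99.9) of 557, and its transcripts Kcnip3-201 and Kcnip3-203 held 99.0% and 99.1% of the gene's TPM. At the third exon, the downstream acceptor, 4 bases on, took 58 of 373 reads in replicate 1 and 56 of 351 in replicate 2, or 15.7% (13.3 to 18.6). The matching transcript Kcnip3-201 was estimated at 15.2% and 14.9% of TPM on mm10, inside that interval. In the deposited mm9 transcript estimates, Kcnip3-201 held 53.9% and 46.6% of the gene's RPKM, above that interval.

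Kcnip2 was too shallow to rank its exons. Its outer first exon had 7 and 13 reads and the inner 8 and 4, and their intervals, 45.3% to 77.1% and 22.9% to 54.7%, overlapped. Transcript estimates gave Kcnip2-209, from the outer exon, 66.1% and 70.9% of TPM, and Kcnip2-203, from the inner exon, 13.6% and 7.38%. A retained-intron transcript, Kcnip2-204, had 20.3% and 18.2%.

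In Kcnd3, 67 reads entered the 57-base exon and 143 skipped it in replicate 1, and 55 entered and 97 skipped it in replicate 2. Inclusion was 33.7% (29.0 to 38.7), and 38.6% when counted on the reads that left the exon. Kcnd3-201 and Kcnd3-203, which contain the exon, held 22.9% and 19.1% of TPM, below that interval. Kcnd3-202, which lacks it, led with 72.6% and 76.8%. In Kcnd1, the coding transcript Kcnd1-201 had 92.0% and 92.8% of TPM.

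**Figure D3:**
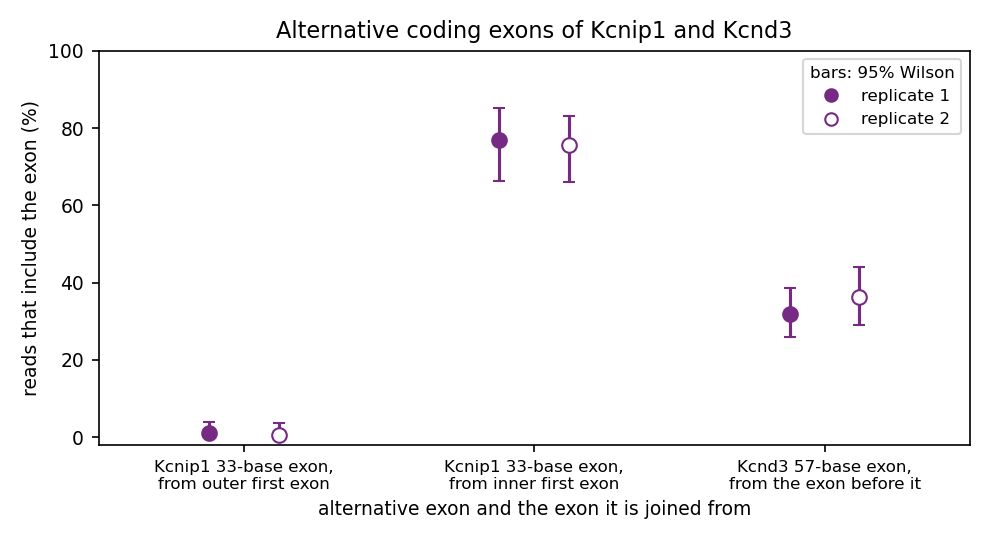
Percent of reads that include an alternative exon, out of those that include or skip it, in replicate 1 (filled) and replicate 2 (open), with 95% Wilson intervals. The 33-base exon of Kcnip1 sits at 77.0% and 75.5% when joined from the inner first exon and near 0 when joined from the outer.

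Junction depth was lower at the 5' end than at the last intron of Dpp6, Kcnip4, Kcnip1 and Dpp10. Over the 25 introns of Dpp6-203, reads rose from 322 at the first to 2674 at the last, with all first exons together giving 776. In Kcnip4 they rose from 215 at the second intron to 1460 at the last. For Kcnip1, all first exons together gave 494 reads, against 1015 at intron 3 and 1197 at the last. Dpp10 had 297 at the first intron and 870 at the last, with its first exons together at 422. Between these, its introns ranged from 254 at intron 17 to 933 at intron 8. Kcnd2 had 2056 at the first and 1702 at the last. Neighbouring introns of 1 transcript also differed, from 1156 to 2472 reads in Dpp6, so shares are compared only among junctions at the same position.

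**Figure D4:**
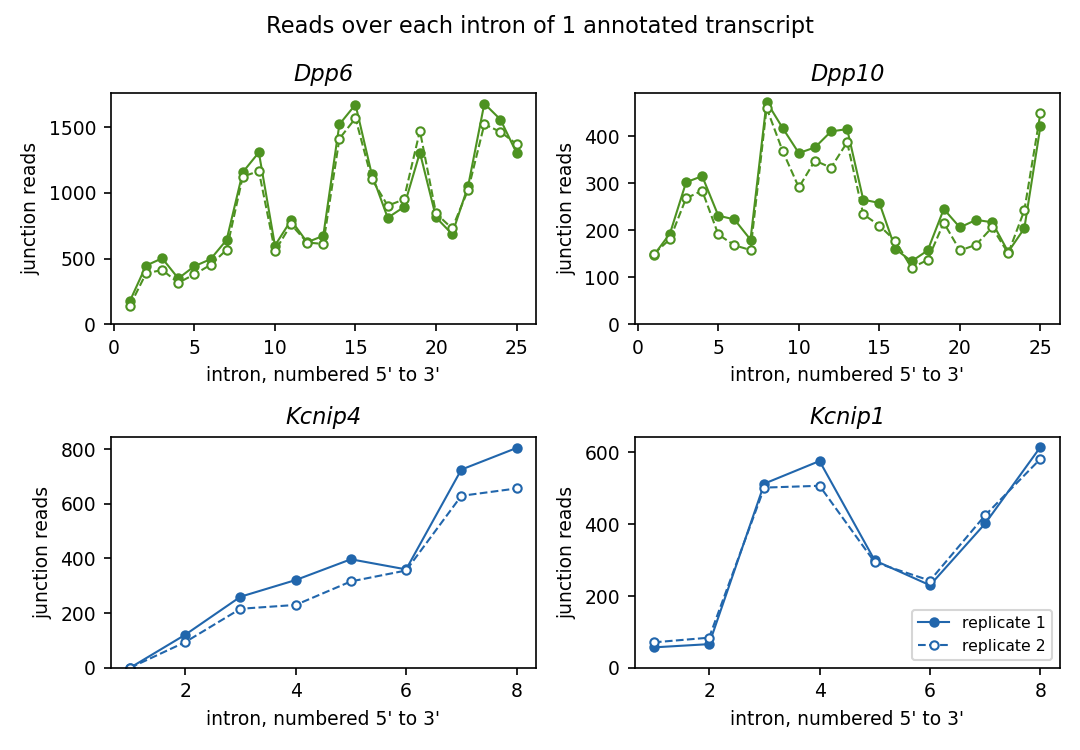
Junction reads over each intron, numbered 5' to 3', along the annotated transcript with most exons of 4 genes, in replicate 1 (filled, solid line) and replicate 2 (open, dashed line). Dpp6 rises from 322 reads at intron 1 to 2674 at intron 25, both replicates summed, and the replicates follow each other along each gene.

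Around these genes, 24 of 37 other voltage-gated potassium pore genes reached 1 TPM in both libraries, with a median of 1.82 TPM, against 4.77 TPM over all protein-coding genes and 19.7 TPM over the 3 Kv4 pores. Kcnc1, which encodes a pore of fast-spiking neurons, had 239 and 223 TPM, above Kcnd2 in both libraries, and Kcna7 was lowest at 0.01 TPM in each. The genes of this list nearest to Kcnd2 in level over the 2 libraries were Kcng4 (64.9 and 58.7 TPM), Kcna1 (71.1 and 73.0 TPM) and Kcnh2 (54.6 and 54.0 TPM). Nearest to Kcnip4 among all listed genes were Kcnab1, Kcng4 and Fat2, and nearest to Dpp6 were Plcb4, Kcnab2 and Sst. Likeness over 2 libraries is a likeness of level only.

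Of 20 other reported Kv4 partners, 19 matched a gene in the files and 15 reached 1 TPM. Dlg4, which encodes the synaptic scaffold PSD-95, was highest (226 and 204 TPM), followed by the kinase subunit Prkaca (153 and 161 TPM) and the T-type calcium channel Cacna1g (163 and 126 TPM). Kcne1 (0 and 0.05 TPM) and Kcne3 (0.02 and 0.03 TPM) shared the lowest mean. Kcne2 had 6.57 and 2.36 TPM, and the choroid plexus marker Kcnj13, for comparison, 11.9 and 3.51 TPM. Of 9 relatives of KChIPs among the neuronal calcium sensors, 7 reached 1 TPM, led by Vsnl1 (320 and 329 TPM), Hpcal1 (312 and 299 TPM) and Hpca (97.7 and 112 TPM), all above Kcnip4, with Guca1a lowest (0.17 and 0.13 TPM). Of 7 peptidase relatives of the DPP genes, 5 reached 1 TPM, led by Prepl (183 and 166 TPM), Dpp7 and Dpp8. Dpp4, the enzymatically active peptidase that names the family, had the lowest mean, at 0.50 and 0.54 TPM, and overlapped Fap (0.60 and 0.47 TPM). Both lay below Dpp6 and Dpp10.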

How the data were processed

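RNA sequencing covered 2 libraries of 1 group. Per the file headers, the authors deposited for each mm10 gene and transcript (GENCODE M4) an expected count, a TPM value, an FPKM value and, for transcripts, the percent of the gene's TPM; TPM has spike-ins and mitochondrial RNA in its denominator. On mm9 (Ensembl 65), the deposited attributes give RPKM per gene, transcript and exon, and the deposited junction table gives a count of reads with an irreproducibility fraction. The exon RPKM equalled the sum of its transcripts' RPKM for 351001 of 351001 exons (within 0.1%), so it is no separate measure of an exon. The sources used here name no aligner.

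The 9 genes and all lists were chosen with earlier results of these data known. Named are the 9 genes, the 3 highest and the lowest gene of each list of relatives and partners (cell type markers are given as counts and sums), the 3 genes nearest in log2(TPM + 1) to Kcnd2, Kcnip4 and Dpp6, and first exons with at least 5% of the reads. A few list genes covered by the rule are left out of the text and were kept in each count. Transcript names, coordinates and sequences came from GENCODE M21, where 40 of 47 member transcripts had the deposited length; the other 7 are of Kcnip4. First exon reads are those that leave its donor (within 1 base) for an annotated acceptor, and an intron shifted by up to 5 bases at equal length was matched. Replicate ratios used expected counts rounded to whole numbers, edgeR 4.0.16 in R 4.3.3 (TMM scaling, prior count 2, at least 10 counts), or DESeq2 1.42.0 size factors. On counts simulated for this comparison over 15543 genes, 200 of 200 genes changed by 1.5 or 2 on the log2 scale passed 2-fold. These genes had at least 100 counts, and the simulated counts held Poisson noise with no further spread between libraries. This checks the calculation only. Intervals used scipy 1.17.1. Other units, scalings, filters and single replicates were tried as alternatives.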

Additional observations from a re-analysis of the deposited data

How the results depend on the processing

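The 9 genes held their order under FPKM and posterior mean TPM, and 7 of them were at 10% or more of the level of Dpp6 under every unit and in each library alone. Within a library, FPKM and TPM over nuclear genes are TPM times a constant. These units could therefore not change the order or the share of Dpp6 there. With mm9 RPKM, 5 of 9 kept their rank, since Kcnip4 changed places with Kcnd2, and Kcnip2 with Kcnd1; the cause was not tested. In replicate 1 alone 7 kept their rank, and in replicate 2 alone 9. No member was 2-fold apart under any scaling, prior count or filter, although genes called over the whole table rose from 635 (3.22%) to 1018 (5.18%) with TPM ratios and to 1632 of 43346 (3.77%) without a filter. A single transcript held at least 50% of TPM in 6 members under every mm10 estimate. First exons with at least 5% of junction reads numbered 12 in all, under each filter, in each replicate and with all acceptors counted (the last chosen after seeing the data). With exon RPKM 12 passed as well, but 11 of them were the same: Kcnip2-203 fell to 4.73% and the Dpp6-201 exon stood at 31.0%, and 15 of 19 shares left their intervals. Counting reads into the unannotated Kcnip1 exon as inclusion, also chosen later, raised the share from the outer exon from 0.929% to 4.76%. Inclusion of the Kcnd3 exon ran from 31.9% to 36.2% in the replicates. No paired analysis was possible because the libraries form 1 group. Depth limits Kcnip2, with 32 first exon reads.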

Other observations

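Beside the annotated introns of the 9 genes, 20 unannotated junctions had at least 10 reads, 7 of them in Dpp6. The 2 most read, with 62 reads each (29 and 33, and 34 and 28 in replicates 1 and 2), both leave annotated Dpp6 donors. In Kcnip3, 2 junctions of 24 and 19 reads leave the first exon for unannotated acceptors, beside 555 reads to the annotated one. In Kcnip1, 13 reads leave the outer first exon for an unannotated exon, and 16 reads run from an unannotated donor to the 33-base exon.

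In the deposited mm9 table, Kcnd1 stood at 0.483 and 2.32 RPKM in the numbered replicates, wider apart than its 3.87 and 4.80 TPM on mm10. The gap lay in a short transcript of 2 exons and 751 bases, at 0.0351 and 2.02 RPKM. The full-length form had 0.448 and 0.303 RPKM, and Kcnd1 junctions held 214 and 339 reads.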
